A study of Mus musculus with 6 samples.

Results

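NOTCH signalling was described here through 10 mouse genes, the receptors Notch1, Notch2, Notch3 and Notch4, the ligands Jag1, Jag2 and Dll1, and the target genes Hes1, Hey2 and Heyl, out of 19937 genes measured in tumours grown with estradiol (E2) or placebo. A gene was taken where a probe set of the array was annotated with that gene alone, and each of the 10 had 1 such probe set. The tumours grew from MASE2 cells injected into SCID mice, which lack mature T and B lymphocytes, and the pellet, E2 or placebo, was implanted along with the cells. MASE2 cells are ascites cells of a transgenic ovarian cancer mouse that had itself received E2, and every tumour of both groups carries the same alteration, the large and small SV40 T antigens of the tgCAG-LS-TAg transgene, switched on by an adenovirus that delivers Cre recombinase into the ovarian bursa. One cell line thus stands for the disease, and the host keeps its own vessels, stroma and myeloid cells. Each group held 3 tumours, 1 array each, collected when the mice lost wellness. The comparison asks whether the RNA of these genes differed between E2 and placebo tumours. Neither the day of collection nor the age of the mice is stated.

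NOTCH receptors are membrane proteins that are cut when a ligand of the Delta or Jagged family on a neighbouring cell pulls on them. The freed intracellular part enters the nucleus, joins the DNA-binding protein RBPJ and a Mastermind coactivator, and switches on HES and HEY genes, which encode transcriptional repressors. In the ovary the pathway is known for signalling between oocyte, granulosa cells and vessels, and in vessels NOTCH3 and HEYL are typical of mural cells while NOTCH4 and DLL4 are typical of endothelium. The data are RNA levels of these genes and hold no measure of receptor cleavage.

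1 array, placebo replicate 3, differed from the rest before any grouping. Correlated across genes (which are not independent), it reached a Pearson r of 0.857 to 0.865 with the remaining arrays, and those reached 0.960 to 0.994 with each other. All 12 intestinal epithelium markers of a list were highest on that array, where their mean log2 intensity was 9.65 against 4.47 to 4.72 on the other arrays. The test of each NOTCH gene is therefore given on all 6 arrays and on the 5 arrays without placebo replicate 3.

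On all 6 arrays, 0 of the 10 NOTCH genes passed the test (limma, Benjamini-Hochberg adjusted p under 0.05 over all 19937 genes), while 1.38% of all genes did (1.06% higher and 0.326% lower). Of the 10, 1 (Notch3) had an unadjusted p under 0.05, as 16.5% of all genes did. On the 5 arrays, 4 of the 10 fell with E2, the receptor genes Notch1, Notch2 and Notch3 and the ligand gene Jag1, and 0 rose, beside 5.21% of all genes called lower and 6.40% called higher in that comparison. The falls were 1.94-fold for Jag1, 1.75-fold for Notch3, 1.48-fold for Notch2 and 1.45-fold for Notch1. Over the 10 genes the median log2 difference, E2 minus placebo, was -0.25 on 6 arrays and -0.28 on 5, beside -0.0087 and -0.011 over all genes. All 4 receptor genes had lower means with E2 on both sets of arrays, as 51.7% and 52.5% of all genes did. None of the 3 target genes passed on either set.

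The start-site regions of the 4 genes that fell on the 5 arrays, and of Hey2, a target gene, are printed so that the letters around the genes with the clearest difference can be read. RefSeq windows of GRCm38.p6 were at hand for 8 of the 10 genes, all but Hes1 and Heyl, and each stretch is the 250 bases before an annotated start. Capitals mark GGGCGG or its other-strand form CCGCCC (the GC box bound by SP1-type factors) and, in Hey2 alone, TTCCCA, the other-strand form of TGGGAA, the core of the sites that RBPJ binds. No marked match of TGGGAA overlapped a GC box.
Jag1, chr2:137116521-137116770, minus strand: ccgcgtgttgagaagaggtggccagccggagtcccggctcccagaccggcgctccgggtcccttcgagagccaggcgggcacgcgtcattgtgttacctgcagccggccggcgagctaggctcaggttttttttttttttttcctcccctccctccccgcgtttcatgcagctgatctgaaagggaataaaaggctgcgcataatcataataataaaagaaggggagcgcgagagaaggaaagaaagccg
Notch1, chr2:26503823-26504072, minus strand: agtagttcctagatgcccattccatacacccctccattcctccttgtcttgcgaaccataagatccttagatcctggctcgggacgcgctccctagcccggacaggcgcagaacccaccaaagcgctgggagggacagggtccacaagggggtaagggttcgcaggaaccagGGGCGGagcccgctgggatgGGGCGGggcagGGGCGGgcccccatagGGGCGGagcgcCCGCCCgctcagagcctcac
Notch2, chr3:98013288-98013537, plus strand: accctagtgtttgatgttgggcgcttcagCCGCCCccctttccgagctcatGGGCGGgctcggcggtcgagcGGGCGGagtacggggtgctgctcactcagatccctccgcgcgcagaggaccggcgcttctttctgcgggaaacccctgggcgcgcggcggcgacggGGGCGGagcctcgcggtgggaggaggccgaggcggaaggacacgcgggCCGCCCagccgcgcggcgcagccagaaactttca
Notch3, chr17:32166891-32167140, minus strand: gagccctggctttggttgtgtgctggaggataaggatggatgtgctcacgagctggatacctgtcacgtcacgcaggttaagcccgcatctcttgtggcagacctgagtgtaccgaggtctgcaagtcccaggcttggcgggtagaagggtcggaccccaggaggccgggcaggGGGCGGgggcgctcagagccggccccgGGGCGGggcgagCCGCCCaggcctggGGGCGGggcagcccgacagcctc
Hey2, chr10:30842784-30843033, minus strand: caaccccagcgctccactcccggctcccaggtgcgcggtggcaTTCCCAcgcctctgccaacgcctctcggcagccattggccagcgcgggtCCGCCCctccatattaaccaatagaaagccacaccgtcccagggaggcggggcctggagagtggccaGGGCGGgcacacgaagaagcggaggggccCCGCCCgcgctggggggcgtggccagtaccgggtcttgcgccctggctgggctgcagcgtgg
A GC box stood in 32.7% of the 32851 mouse windows of this length and TGGGAA in 21.6%, each on either strand. Notch1 and Notch2 held 5 GC boxes each, Notch3 held 4, Hey2 held 3 and Jag1 held 0. The TGGGAA core occurred once among the 9 windows of the 8 genes (Dll1 has 2 annotated starts), between 207 and 202 bases before the Hey2 start. The full oestrogen response element (GGTCA and TGACC parted by any 3 bases), present in 0.0639% of all windows, and the E-box CACGTG, a site of HEY proteins present in 6.02%, were found in 0 of the 9. Both read the same on either strand. A single arm of that element (GGTCA or TGACC), present in 35.2% of all windows, occurred 3 times in the Notch4 window and 2 times in 1 Dll1 window, neither printed here. Jag2, which passed the test on neither set of arrays, held 5 GC boxes. The G and C share of the 9 windows was 56.0 to 87.2%, above the median of 52.4% over all windows. These are matches of letters in short windows, with no measurement of binding.

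Among the receptors, Notch3, the receptor of pericytes and vascular smooth muscle, showed the clearest separation. Its log2 intensity was 5.99, 6.28 and 5.58 in placebo replicates 1, 2 and 3 and 5.40, 5.17 and 5.40 in the E2 tumours. Every E2 tumour lay below every placebo tumour. Placebo tumours averaged 5.95 ± 0.35 and E2 tumours 5.33 ± 0.13 (SD, n = 3 each), a difference of -0.63 (SE 0.19, 95% confidence interval -1.09 to -0.16, limma adjusted p = 0.193). On the 5 arrays Notch3 fell by 0.81 on the log2 scale (SE 0.13, limma adjusted p = 0.00635). The exact two-sided permutation p on 6 arrays was 0.10, the smallest that 3 tumours against 3 allow.

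Notch1, the most widely studied receptor of the family, measured 6.32, 6.23 and 5.67 with placebo and 5.76, 5.61 and 5.86 with E2. Placebo replicate 3 lay within the range of the E2 tumours, and the other 2 placebo tumours above it. On 6 arrays the difference was -0.33 (SE 0.19, 95% confidence interval -0.79 to 0.13, limma adjusted p = 0.441), and on 5 arrays Notch1 fell by 0.53 on the log2 scale (SE 0.11, limma adjusted p = 0.0169).

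Notch2, a receptor that growing follicles also use, measured 7.44, 7.62 and 6.54 with placebo and 7.06, 6.74 and 7.11 with E2. Here placebo replicate 3 was the lowest of all 6 tumours. The difference was -0.23 on 6 arrays (SE 0.30, limma adjusted p = 0.714), with an interval from -0.96 to 0.49 that leaves room for either direction. On 5 arrays Notch2 fell by 0.56 on the log2 scale (SE 0.13, limma adjusted p = 0.0317).

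Notch4, the receptor typical of endothelial cells, measured 5.39, 5.47 and 5.57 with placebo and 5.36, 5.33 and 5.12 with E2. The groups did not overlap, but the gap between the closest tumours was narrow. Its difference was -0.21 on 6 arrays (SE 0.10, limma adjusted p = 0.384) and -0.16 on 5 (SE 0.11, limma adjusted p = 0.416), so Notch4 passed on neither set.

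**Figure D1:**
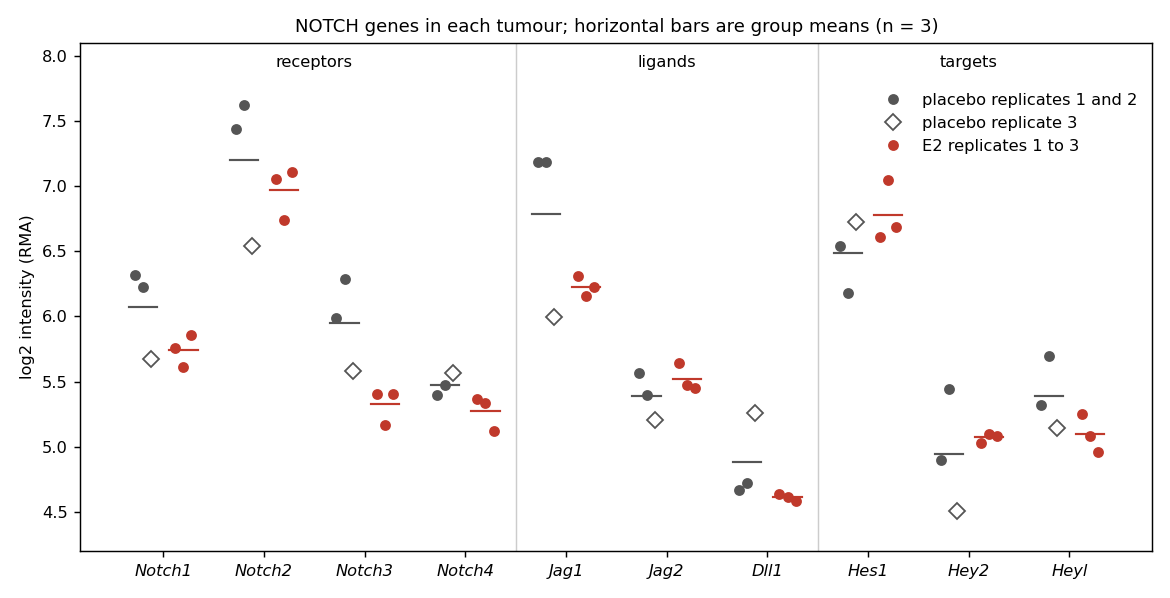
Log2 intensity (RMA) of the 10 NOTCH genes (x axis, by role) in each tumour, with filled grey points for placebo replicates 1 and 2, an open diamond for placebo replicate 3, red points for the E2 tumours and horizontal bars for group means over 3 tumours. For Jag1 the E2 tumours lie between 6.16 and 6.31, below the 7.19 and 7.18 of placebo replicates 1 and 2 and above the 5.99 of placebo replicate 3.

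Among the ligands, Jag1, a Jagged ligand made by many epithelial and vascular cells, differed most. It measured 7.19, 7.18 and 5.99 in placebo replicates 1, 2 and 3 and 6.31, 6.16 and 6.22 in the E2 tumours. The E2 tumours lay close together, with placebo replicates 1 and 2 above all of them and placebo replicate 3 below all of them. On 6 arrays placebo tumours averaged 6.79 ± 0.69 and E2 tumours 6.23 ± 0.077 (SD, n = 3 each), a difference of -0.56 (SE 0.33, 95% confidence interval -1.37 to 0.25, limma adjusted p = 0.460). On 5 arrays Jag1 fell by 0.96 on the log2 scale (95% confidence interval -1.17 to -0.74, SE 0.093, limma adjusted p = 0.000854), the largest log2 difference among the 10 genes there. Against placebo replicate 3 alone the E2 mean was 0.24 higher, a comparison with 1 tumour and no test.

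Jag2, the second Jagged ligand, did not follow Jag1. It measured 5.57, 5.40 and 5.20 with placebo and 5.64, 5.47 and 5.45 with E2, and the groups overlapped. The difference was 0.13 on 6 arrays (95% confidence interval -0.16 to 0.43, limma adjusted p = 0.611) and 0.039 on 5 (95% confidence interval -0.21 to 0.29, limma adjusted p = 0.876). Dll1, a Delta ligand, measured 4.67, 4.72 and 5.26 with placebo and 4.64, 4.62 and 4.59 with E2. All E2 values were below all placebo values, yet Dll1 lay below the median gene of its array in all 6 tumours, and its difference of -0.27 on 6 arrays (limma adjusted p = 0.483) was -0.080 without placebo replicate 3 (adjusted p = 0.649).

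The 3 target genes passed on neither set, and the 6-array interval of each includes 0. Hes1, a repressor that many cell types switch on in response to NOTCH, measured 6.54, 6.18 and 6.73 with placebo and 6.61, 7.05 and 6.68 with E2. Its E2 values lay above placebo replicates 1 and 2, while placebo replicate 3 lay among them. The difference was 0.30 on 6 arrays (95% confidence interval -0.15 to 0.75, limma adjusted p = 0.476) and 0.42 on 5 (95% confidence interval 0.046 to 0.79, unadjusted p = 0.0322, limma adjusted p = 0.152).

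Heyl, the HEY gene of mural cells, measured 5.32, 5.69 and 5.15 with placebo and 5.25, 5.08 and 4.96 with E2. Its groups overlapped through placebo replicate 3. The difference was -0.29 on 6 arrays (SE 0.16, limma adjusted p = 0.441) and -0.41 on 5 (SE 0.14, limma adjusted p = 0.110), and Heyl passed on neither set. Hey2, the HEY gene known from heart and arteries, measured 4.90, 5.44 and 4.50 with placebo and 5.03, 5.10 and 5.08 with E2. The E2 values fell inside the placebo range, and the sign of the difference turned from 0.12 on 6 arrays (limma adjusted p = 0.816) to -0.098 on 5 (limma adjusted p = 0.769). Hey2 and Heyl lay below the median gene of their array in 5 of the 6 tumours, and none of the 10 genes lay below the lower quartile of its array (4.22 to 4.39 over the arrays).

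**Figure D2:**
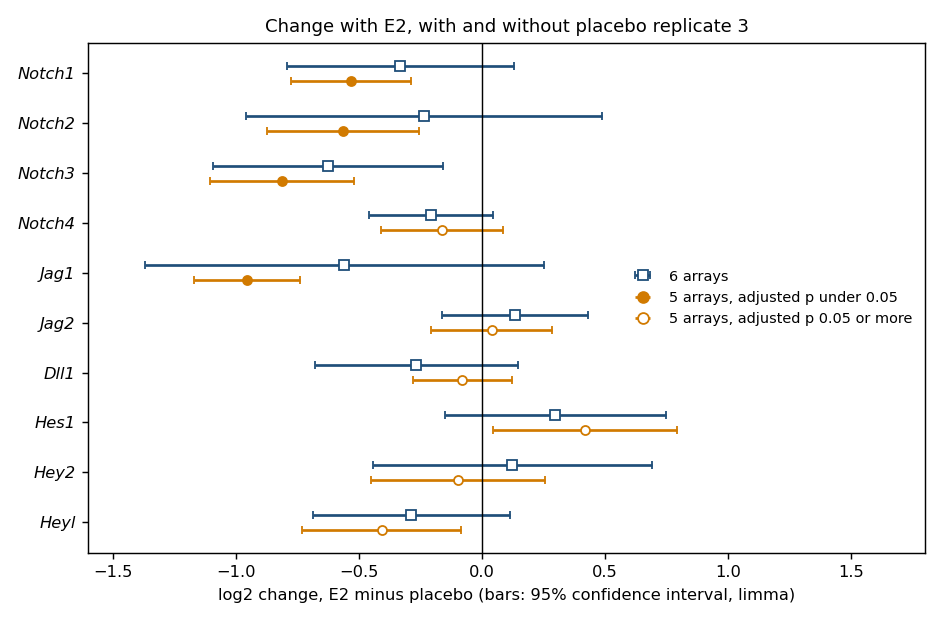
Log2 change, E2 minus placebo (x axis), of each NOTCH gene (y axis) with its 95% confidence interval from limma, as squares for all 6 arrays and circles for the 5 arrays without placebo replicate 3, filled where the adjusted p was under 0.05. The 4 filled circles are Notch1, Notch2, Notch3 and Jag1, at -0.53, -0.56, -0.81 and -0.96.

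Counted over tumours, 3 of the 10 genes (Notch3, Notch4 and Dll1) had every E2 value below every placebo value on 6 arrays, where 11.4% of all genes did, and 0 had every E2 value above, where 14.9% did. On the 5 arrays these counts were 7 of 10 below (20.4% of all genes) and 1 above (21.2%), Hes1. Placebo replicate 3 was the lowest placebo tumour for 7 of the 10 and the highest for 3 (Notch4, Dll1 and Hes1), beside 44.4% and 38.1% of all genes. For 4 of the 10 (Notch2, Jag1, Jag2 and Hey2) it also lay below every E2 tumour, as it did for 40.8% of all genes. The placebo tumours spread more widely than the E2 tumours in 9 of the 10 genes, as in 71.9% of all genes. Notch4 was the exception, with an SD of 0.087 with placebo and 0.13 with E2.

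With placebo replicate 3 and a further array left out, a check added after the data were seen, Jag1 and Notch3 fell in all 5 fits. The log2 difference ranged over these fits from -0.996 to -0.919 for Jag1 (adjusted p 0.00217 to 0.00649) and from -0.96 to -0.66 for Notch3 (adjusted p 0.00420 to 0.0287). Notch1 and Notch2 passed in 2 of the 5 fits each. Notch1 did not pass without placebo replicate 1, E2 replicate 1 or E2 replicate 2 (adjusted p 0.0608 to 0.0660), and Notch2 not without placebo replicate 2, E2 replicate 1 or E2 replicate 2 (0.0779 to 0.115). Heyl fell by 0.60 on the log2 scale in 1 of them, the fit without placebo replicate 1 (adjusted p = 0.0362). In the fits without placebo replicate 3 and an E2 tumour, 530 to 774 of all 19937 genes were called lower. Where 1 placebo tumour was left, it was assumed to vary as the E2 tumours do.

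A further 43 NOTCH pathway genes were analysed by role. On 6 arrays 0 of the 43 passed, and 10 had an unadjusted limma p under 0.05 (16.5% of all genes did). On the 5 arrays 5 fell (Dlk1, Neurl1b, Lfng, Dtx4 and Dtx2) and 1 rose (Psen2), beside 5.21% of all genes called lower and 6.40% called higher. Their median log2 difference was -0.044 on 6 arrays and -0.083 on 5. In the check without placebo replicate 3 and an E2 tumour, Dlk1, Neurl1b and Lfng passed in every fit. Among these fits Dtx4 passed only without E2 replicate 3 (limma adjusted p = 0.0354), and Psen2 only without E2 replicate 1 (limma adjusted p = 0.0413). Dtx2 passed in none of them (limma adjusted p 0.0610 to 0.105).

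Dlk1, a Delta-like surface protein without the domain that activates receptors, differed most among ligand-type genes. It measured 7.00, 7.82 and 5.92 with placebo and 5.82, 5.45 and 5.24 with E2, without overlap. The difference was -1.41 on 6 arrays (SE 0.47, limma adjusted p = 0.226), and on 5 arrays Dlk1 fell by 1.91 on the log2 scale (SE 0.25, limma adjusted p = 0.00291). Dll4, the Delta ligand of endothelial tip cells, differed by -0.26 on 6 arrays and -0.22 on 5 (limma adjusted p = 0.217 and 0.183).

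Genes that modify or turn over receptors and ligands gave 4 of the falls on 5 arrays. These were 1 of 5 sugar modification genes and 3 of 11 trafficking and turnover genes, beside 5.21% of all genes called lower. Lfng, a fringe glycosyltransferase that alters which ligands a receptor answers to, measured 5.95, 6.12 and 5.51 with placebo and 5.32, 5.21 and 5.50 with E2. It was 0.52 lower on 6 arrays and fell by 0.69 on the log2 scale on 5 (limma adjusted p = 0.235 and 0.00838). Its relative Mfng differed by -0.30 on 6 arrays and -0.31 on 5 (limma adjusted p = 0.309 and 0.183).

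Neurl1b, a ubiquitin ligase of the Neuralized family that acts on ligands, measured 6.27, 6.56 and 5.84 with placebo and 5.68, 5.47 and 5.59 with E2. It was 0.64 lower on 6 arrays and fell by 0.84 on the log2 scale on 5 (limma adjusted p = 0.184 and 0.00428). Dtx4, a Deltex ubiquitin ligase, measured 6.38, 6.64 and 6.42 with placebo and 5.96, 5.71 and 5.98 with E2. Placebo replicate 3 lay between the other placebo tumours here, and the difference was -0.60 on 6 arrays and -0.63 on 5 (limma adjusted p = 0.0819 and 0.0171). Dtx2, of the same family, differed by -0.076 on 6 arrays and fell by 0.40 on the log2 scale on 5 (limma adjusted p = 0.914 and 0.0330).

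Of the genes that cut receptors, Psen2, a catalytic subunit of gamma-secretase, measured 5.89, 6.16 and 5.77 with placebo and 6.50, 6.63 and 6.78 with E2. Every E2 tumour lay above every placebo tumour. The difference was 0.69 on 6 arrays (SE 0.14, limma adjusted p = 0.0791), and on 5 arrays Psen2 rose by 0.61 on the log2 scale (SE 0.12, limma adjusted p = 0.0193). Furin, a protease that trims receptors on the way to the surface, differed by -0.33 on 6 arrays and -0.19 on 5 (limma adjusted p = 0.325 and 0.291).

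In the nucleus, the coactivator genes Maml1 and Kat2b were 0.32 and 0.34 higher with E2 on 6 arrays, without overlap of the groups, and passed on neither set (limma adjusted p = 0.137 and 0.184 on 6 arrays, 0.0826 and 0.127 on 5). Among further targets, Nrarp, a NOTCH-induced feedback inhibitor, measured 4.92, 5.20 and 5.61 with placebo and 4.53, 4.84 and 4.67 with E2. Its difference was -0.56 on 6 arrays and -0.38 on 5 (limma adjusted p = 0.235 and 0.109). Dtx1, also NOTCH-induced, differed by -0.13 on 6 arrays and -0.11 on 5 (limma adjusted p = 0.499 and 0.556).

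**Figure D3:**
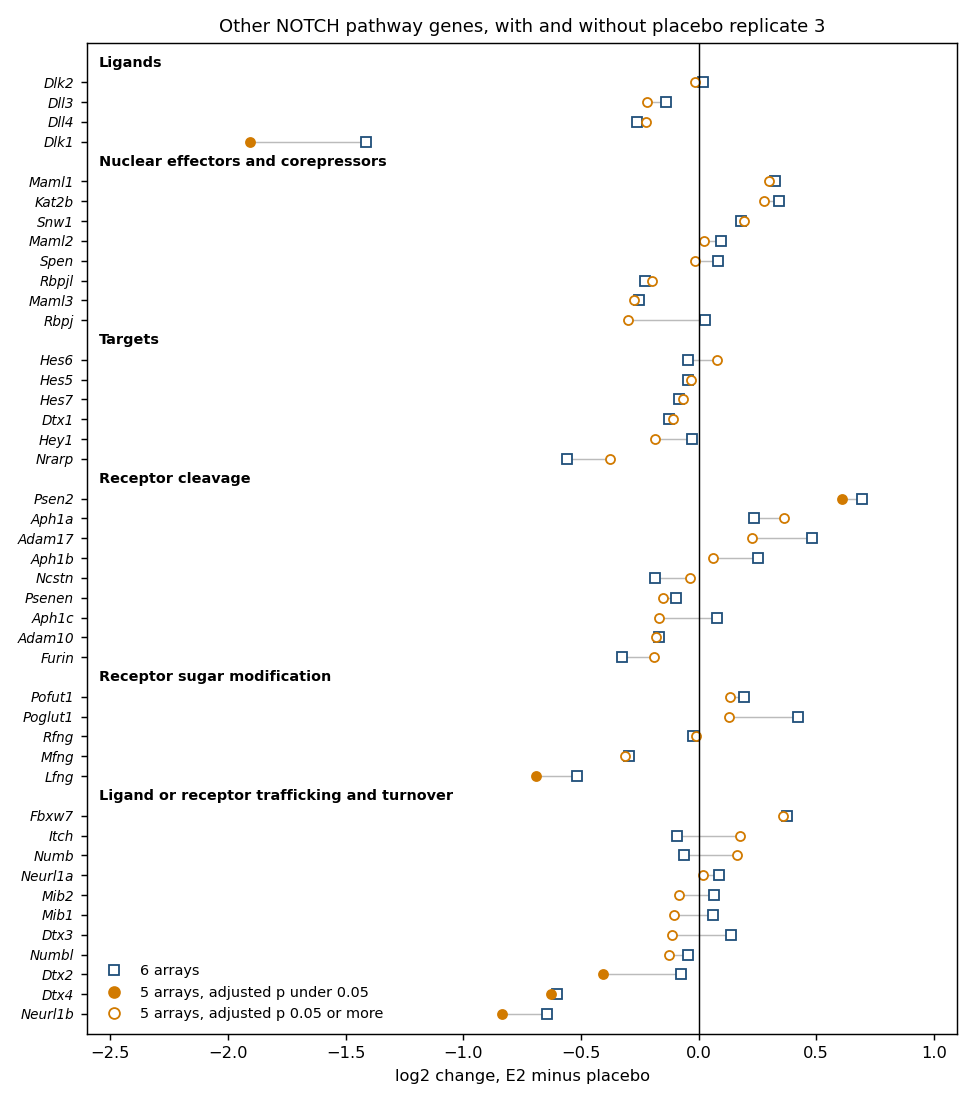
Log2 change, E2 minus placebo (x axis), of the 43 further NOTCH pathway genes (y axis, grouped by role), as squares for 6 arrays and circles for the 5 arrays without placebo replicate 3, filled where the limma adjusted p was under 0.05. Dlk1 lies farthest left at -1.91 on 5 arrays, and Psen2, at 0.61, is the filled circle on the right.

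Notch3, which had the smallest limma p of the 10 genes on 6 arrays, was set against the 9700 named genes above the median level. The 5 with the most similar values over the 6 arrays were Col5a2 (a fibrillar collagen gene), Neurl1b, Esam (an endothelial adhesion gene), Alas2 (the haem synthesis enzyme of red blood cells) and Tnfrsf1b (a tumour necrosis factor receptor gene). Their Pearson r with Notch3 was 0.994 to 0.998 over 6 arrays, and 0.995 to 0.998 over the 5. These points share the 2 groups and the arrays, and 106 of the 9700 genes had an r over 0.95, so the r is a description of 6 tumours.

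RNA came from whole tumours, and fewer cells of a type and less RNA per cell cannot be told apart in it. Markers of several cell types moved beside the NOTCH genes. Over 12 pericyte and smooth muscle markers the mean log2 level was 6.32 to 7.11 in placebo and 6.03 to 6.47 in E2 tumours. On 6 arrays 0 of the 12 passed limma (1 at an unadjusted p under 0.05), and on 5 arrays 3 fell (Rgs5, Cspg4 and Mcam) and 1 rose (Cnn1). Of all genes, 1.38% passed on 6 arrays (16.5% at an unadjusted p under 0.05), and 5.21% fell and 6.40% rose on 5. Placebo replicate 3 held the highest of all 6 values for 8 of the 12, among them Myh11, Cnn1, Acta2 and Tagln. It did so for 5565 of the 19937 genes. It lay below every E2 tumour for 3, Pdgfrb, Cspg4 and Mcam, as for 40.8% of all genes. For Notch3, Heyl and these 3 markers it was the lowest placebo tumour. The same held for 7 of the 10 NOTCH genes and for 44.4% of all genes. The part of mural cells in the Notch3 and Heyl values was not tested.

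Of 12 endothelial markers, 11 had lower means with E2 on 6 arrays, as 51.7% of all genes did. The mean level was 5.73 to 5.84 with placebo and 5.43 to 5.72 with E2. That mean includes Kdr, a VEGF receptor gene and the 1 marker higher with E2, so it averages shifts in both directions. The median log2 difference over the 12 was -0.359 on 6 arrays and -0.285 on 5. On 6 arrays 9 of the 12 had every E2 value below every placebo value (11.4% of all genes). For 1 of them, Kdr, every E2 value lay above (14.9%). On 6 arrays 0 of them fell by the limma test (0.326% of all genes) and on 5 arrays 4 did (5.21%). On 6 arrays 8 of the 12 had an unadjusted limma p under 0.05 in either direction (16.5% of all genes). Kdr rose on both sets (by 2.07 and 2.22 on the log2 scale on 6 and 5 arrays, limma adjusted p = 0.0136 and 0.000253). Notch4 and Dll4, the endothelial genes of the pathway, lay lower with E2 as most of these markers did but did not pass. Of 9 macrophage markers, 2 fell on 6 arrays (0.326% of all genes) and 7 on 5 (5.21%). Their mean levels were 6.51 to 7.33 in placebo and 5.96 to 6.36 in E2 tumours. Of 10 markers of ovarian surface and mesothelium, 2 fell on 6 arrays (0.326% of all genes) and 7 on 5 (5.21%). Their mean levels were 7.96 to 8.37 in placebo and 6.36 to 6.61 in E2 tumours. The mean of placebo replicate 3 averages shifts in both directions. That tumour was the lowest placebo tumour for 5 of the 10 (Wt1, Msln, Upk3b, Upk1b and Lrrn4). It was the highest for 4 (Krt8, Krt18, Krt19 and Cldn15), beside 44.4% and 38.1% of all genes. Of 8 fibroblast markers, 0 passed limma on 6 arrays (1.38% of all genes did), and 3 had an unadjusted p under 0.05 (16.5%). On 5 arrays 4 fell (5.21% of all genes) and 1 rose (6.40%). Their mean levels were 7.79 to 8.56 in placebo and 7.70 to 8.15 in E2 tumours. None of these markers lay below the lower quartile of its array in all 6 tumours, and their part in the NOTCH gene differences was not tested.

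**Figure D4:**
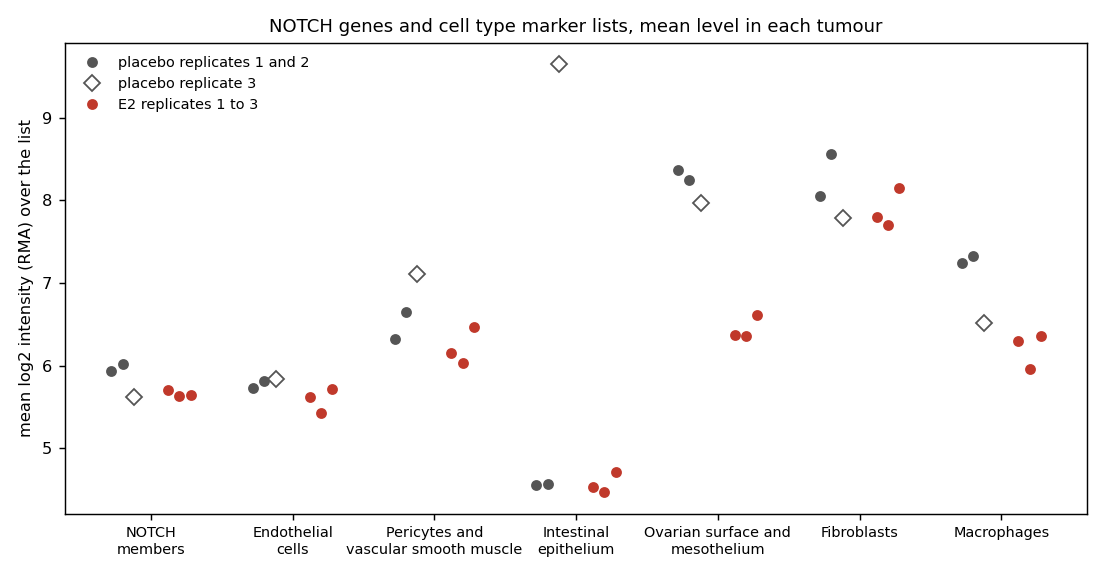
Mean log2 intensity (RMA) over the 10 NOTCH genes and over each of 6 cell type marker lists (x axis) in each tumour, with filled grey points for placebo replicates 1 and 2, an open diamond for placebo replicate 3 and red points for E2 tumours. The intestinal list stands at 9.65 in placebo replicate 3 alone, and the NOTCH mean is 5.93 and 6.02 in placebo replicates 1 and 2, 5.62 in placebo replicate 3 and 5.63 to 5.71 with E2.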

How the data were processed

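RNA of 6 MASE2 tumours was hybridised to single-colour whole-transcript arrays, 1 per tumour, and groups and replicate numbers came from the sample titles. The deposited values are log2 intensities, summarised by the authors through RMA (per the submitters' processing notes, which name no version). The array medians over probe sets were 4.84 to 4.97. RMA works to bring distributions together, here not to equality, and abundant RNA of another tissue in 1 sample can displace the remaining genes there. Of 34760 probe sets, 21640 named 1 gene in the platform annotation, 1321 named several and 11799 were unlisted; the probe set with the highest mean stood for each of 19937 genes, and no dim gene was removed.

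The group difference was fitted in limma 3.58.1 (lmFit, eBayes; R 4.3.3) over all genes, two-sided, with Benjamini-Hochberg adjustment and a threshold of 0.05, after a test of the step on simulated data. The tumours are biological replicates per the series' design text, and 6 arrays limit the precision. Members, lists and tests were chosen with earlier results of these data known. Named were all 10 members, the pathway genes that passed on 6 or 5 arrays, and the 2 of smallest p in each role; cell type markers named singly were chosen after their values were seen. Some items are not reported here. Promoter windows came from RefSeq (GRCm38.p6), with motifs chosen after the data were seen. Alternatives were leaving out arrays, the replicate block, filters, probe set choice, normalization, variance model, array weights and thresholds.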

Additional observations from a re-analysis of the deposited data

How the results depend on the processing

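The counts rest on which arrays are used. Leaving out 1 array gave 31 to 1276 genes called higher and 0 to 1039 called lower, against 211 and 65 on 6 arrays; the upper ends came without placebo replicate 3, the lower ends without E2 replicate 1 (limma, 2461 genes there with an unadjusted p under 0.05). The NOTCH genes called lower numbered 4 without placebo replicate 3 and 0 without any other array, and 2 to 4 where placebo replicate 3 and another array were left out, a setting added after the data were seen. That setting gave 688 to 1143 genes called higher and 530 to 1037 called lower, and 0 to 1 further pathway genes higher and 3 to 4 lower. Without 1 array these pathway counts were 0 to 1 and 0 to 5, the upper ends without placebo replicate 3.

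Array weights, which gave placebo replicate 3 a weight of 0.149 and the other arrays 1.14 to 1.90, called 1026 genes higher and 760 lower, 3 NOTCH genes lower (Notch1, Notch3 and Jag1), and 1 pathway gene higher and 4 lower. An adjusted p under 0.10 gave 543 and 193 genes, and 1 pathway gene each way. An unadjusted p under 0.05 with a 1.5-fold change gave 769 and 455 genes, 1 NOTCH gene lower (Notch3), and 1 pathway gene higher and 3 lower. Median centring gave 363 genes higher, and repeated quantile normalization 1 pathway gene lower (Dtx4). The sign of Hey2 turned under array weights (-0.049) and ranged from -0.098 to 0.37 without 1 array. Jag2, at 0.13 on 6 arrays, turned to -0.046 without placebo replicates 2 and 3 and to -0.021 without placebo replicate 3 and E2 replicate 1, and Hey2 also turned in 4 of the 5 fits without 2 arrays, to -0.37 at the lowest. The other 8 NOTCH genes kept their sign under every alternative in which they were fitted; Dll1, Hey2 and Heyl were not fitted with genes under the median left out. The cause of these shifts was not tested.

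The sample titles give replicate numbers and name no pairing. Deviations from the group means correlated at -0.029, -0.18 and -0.13 between same-numbered tumours. With 3 tumours per group and placebo replicate 3 standing apart, these values cannot show whether the numbers pair tumours. With the replicate number as a block, 10 genes were called higher and 0 lower by limma, with 2410 at an unadjusted p under 0.05, and 0 of the NOTCH genes (1 at an unadjusted p under 0.05).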
